A study of Homo sapiens with 15 samples.

Results

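Activins, NODAL and the growth differentiation factors (GDFs) are secreted ligands of the TGF-beta superfamily. The 10 genes described here, out of 17999 gene symbols in the deposited table, were taken by name: 6 ligands or ligand subunits (NODAL, GDF3, GDF11, MSTN, INHBA and INHBE) and 4 secreted binding proteins or antagonists (LEFTY1, LEFTY2, FST and FSTL1). Their messenger RNA levels were followed through 15 RNA-seq libraries of cultured human cells, all wild type, from the embryonic stem cell lines H1 and HUES9. Self-renewing neuromesodermal progenitors (srNMPs), cells of the kind that forms spinal cord and trunk muscle in the embryo, were sampled at passages 25 and 8. Neuron progenitors were sampled after 7 days under either of a pair of conditions with the label RASS or RABC; no label explains these abbreviations. Ventral and dorsal neurons, with no day given, completed the neural branch, and these 6 groups each held 1 H1 and 1 HUES9 library. Skeletal muscle at day 50 and at day 40 and undifferentiated embryonic stem cells (ESC) were 1 library each, from HUES9 only. The labels give no induction for ESC, skeletal muscle induction for muscle and neural induction for all other libraries, srNMPs included. Nothing says that cultures were separate apart from the line, so p-values measure the spread between these libraries, which may be technical.

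A ligand of this branch brings together type II receptors (ACVR2A, ACVR2B) and type I receptors (ACVR1B, ACVR1C, TGFBR1), which phosphorylate SMAD2 and SMAD3. These join SMAD4 and act on target genes with partners such as FOXH1. NODAL needs a co-receptor of the CRIPTO family, and with GDF3 and activin it is known for holding human stem cells pluripotent and, in the embryo, for forming mesoderm and endoderm. LEFTY1 and LEFTY2 are both targets and inhibitors of NODAL, a feedback loop. Activin A is a dimer of the INHBA product. MSTN (myostatin) is made by skeletal muscle and limits its mass, and the closely related GDF11 patterns the trunk and the spinal cord. FST (follistatin) binds activins, myostatin and GDF11 and blocks them.

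Levels are FPKM as the authors deposited them: fragments for each kilobase of a transcript, scaled to sequencing depth. They can be compared between genes because they are per length. A change is a difference in log2(FPKM + 1) between group means, with its standard error (SE) from a limma fit over 14129 genes; adding 1 understates the change of low genes. A change was called at a Benjamini-Hochberg adjusted p under 0.05 over all of those genes. All 10 members were among the 14129 genes, which needed 1 FPKM in at least 1 library. NODAL, LEFTY1 and LEFTY2 passed that filter only through ESC, and MSTN and INHBA only through muscle. These 5 could therefore be tested only because 1 state was high, and GDF11 and FSTL1 were the 2 members at 1 FPKM or more in all 15 libraries.

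Depth, estimated from the smallest values, was 0.954 to 1.051 of the mean library. The estimate looked only at small differences between libraries, so a large one could not have been found. Summed FPKM ran from 290306 to 421109 between libraries. The RASS pair went against its cell line labels: across genes, its HUES9 minus H1 difference correlated at -0.533 to -0.167 with that of the other 5 paired groups, against 0.0691 to 0.377 among those 5. Calls of named genes in comparisons that use RASS are therefore also given without it. Pluripotency markers, 5 genes in all, summed to 24.7 to 56.0 FPKM in srNMPs and to 1227 FPKM in ESC. The 6 neuron markers summed to 1275 to 1624 FPKM in neurons. In 7-day progenitors they summed to 417 to 834 FPKM, in srNMPs to 141 to 398 FPKM and in ESC to 222 FPKM. Muscle had 56.9 to 84.5 FPKM of them. Skeletal muscle markers, 7 genes, summed to 2321 to 3568 FPKM in muscle, against 1.25 to 2.38 FPKM in srNMPs and 2.71 to 5.03 FPKM in neurons. The muscle libraries also held 7 of 7 fibroblast and connective tissue markers, at a sum of 11400 to 18550 FPKM, against 3.74 to 12.2 FPKM in srNMPs and 9.43 to 20.8 FPKM in neurons. The part of those cells in the muscle results below was not tested. In bulk RNA, fewer cells of a type and less RNA per cell cannot be told apart.

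**Figure D1:**
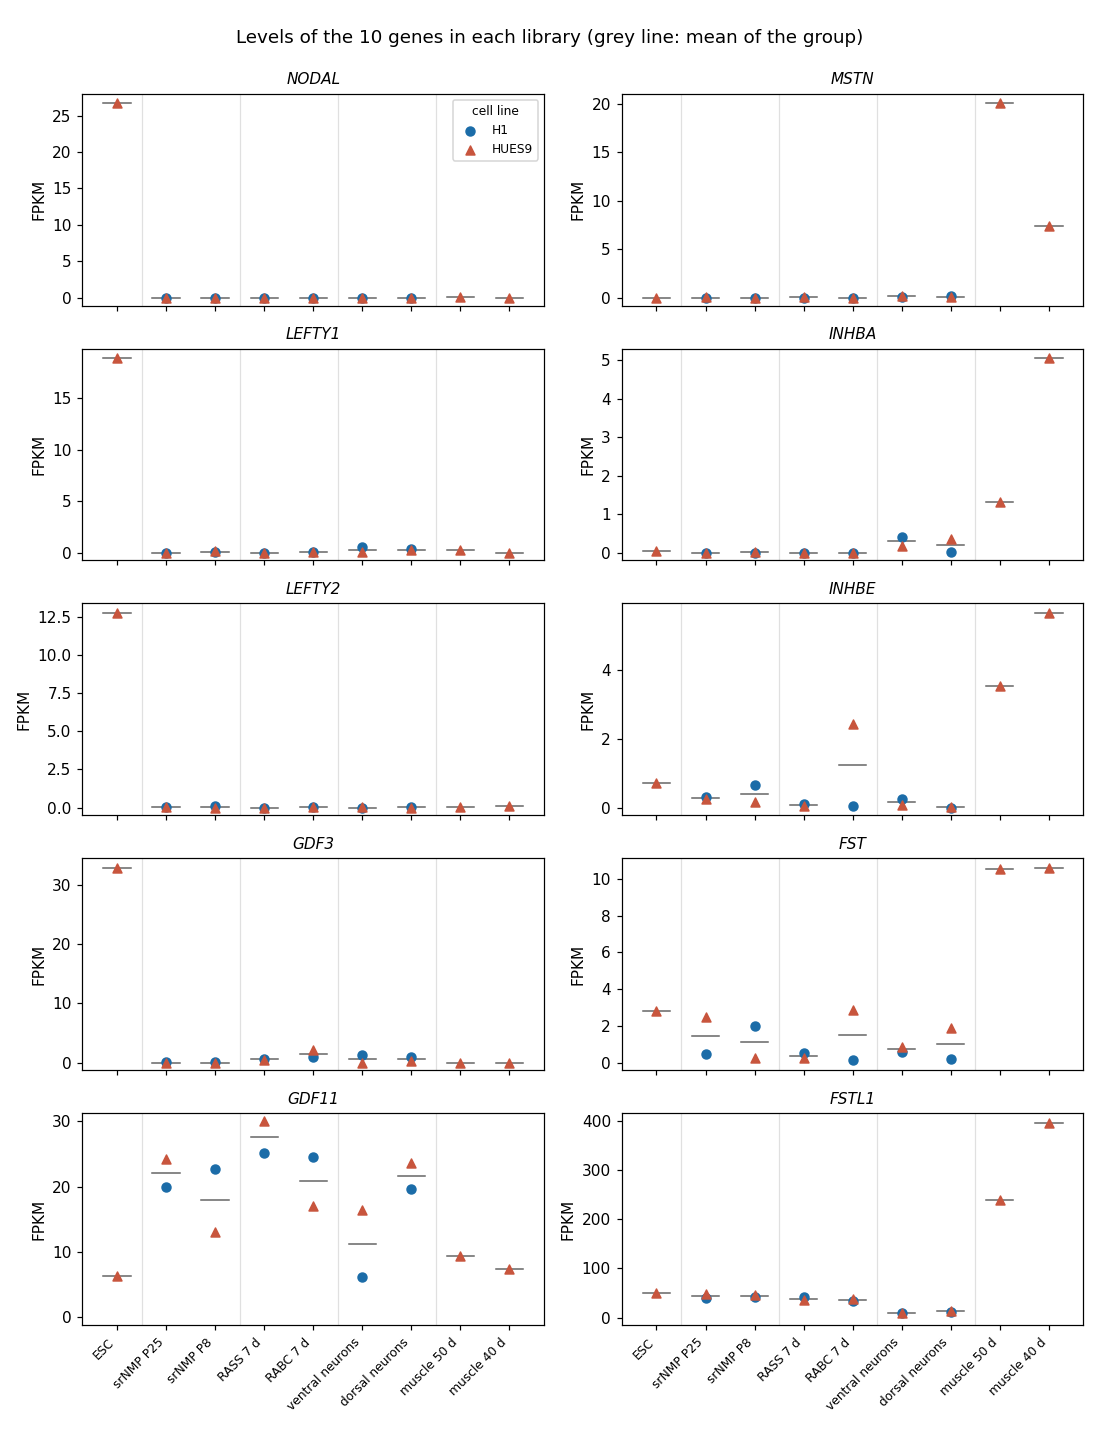
Level of each of the 10 genes (y axis, FPKM, linear, own scale per panel) in every library, by group (x axis), with circles for H1, triangles for HUES9 and a grey line at the group mean. NODAL, LEFTY1, LEFTY2 and GDF3 are high in the ESC library, MSTN, INHBA, INHBE, FST and FSTL1 in the muscle libraries, and GDF11 is the one panel with values between 6.15 and 30.0 FPKM everywhere.

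The NODAL group was high in ESC and near 0 in srNMPs. The NODAL value was 0 in each of the 4 srNMP libraries, against 26.7 FPKM in ESC. In the 8 libraries of 7-day progenitors and neurons it did not exceed 0.0256 FPKM, about the value of 2 fragments, since 1 fragment was estimated at 0.0124 FPKM. Muscle had 0.0387 FPKM at day 50 and 0 FPKM at day 40. NODAL transcript was therefore at the limit of detection in every library but ESC. The change in srNMPs relative to ESC was -4.79 ± 0.08 (SE, adjusted p = 8.2e-08).

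GDF3, a ligand of the NODAL kind that also needs the co-receptor, had 0.0235 FPKM at passage 25 and 0.0225 FPKM at passage 8 in H1 srNMPs. It was listed at 0 in both HUES9 srNMP libraries and at 32.9 FPKM in ESC, and fell by 5.18 ± 0.45 in srNMPs (SE, adjusted p = 0.000391). It was then detected along the neural branch. The RASS libraries had 0.597 FPKM in H1 and 0.457 FPKM in HUES9, and the RABC libraries had 0.914 FPKM in H1 and 2.07 FPKM in HUES9. All 4 of these lay above all 4 srNMP libraries, but the change of 0.93 ± 0.27 did not pass the test (SE, adjusted p = 0.107; without RASS 1.26, adjusted p = 0.226). Ventral neurons had 1.30 FPKM in H1 and 0 FPKM in HUES9. Dorsal neurons had 0.916 FPKM in H1 and 0.232 FPKM in HUES9, so that neurons overlapped both the progenitors and the srNMPs. GDF3 was listed at 0 in both muscle libraries.

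The start regions of NODAL and GDF3 are shown because both genes were at 0 or near it in srNMPs and above 26 FPKM in ESC. Each is the 250 bases upstream of the annotated start, from RefSeq on GRCh38.p14, read 5′ to 3′ along the gene; the files' own build is hg18 and its coordinates were not used. NODAL lies on chromosome 10 between EIF4EBP2 and PALD1, with its window at chr10:70441682-70441931, minus strand. GDF3 lies on chromosome 12 between APOBEC1 and DPPA3, with its window at chr12:7695776-7696025, minus strand. Capitals mark the SMAD core CAGAC in NODAL and the FOXH1 core AATNCACA in GDF3, searched on both strands.
NODAL: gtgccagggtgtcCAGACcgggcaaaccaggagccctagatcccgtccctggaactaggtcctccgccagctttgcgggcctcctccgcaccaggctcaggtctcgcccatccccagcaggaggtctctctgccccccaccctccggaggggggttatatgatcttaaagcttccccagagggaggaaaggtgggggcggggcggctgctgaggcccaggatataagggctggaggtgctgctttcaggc
GDF3: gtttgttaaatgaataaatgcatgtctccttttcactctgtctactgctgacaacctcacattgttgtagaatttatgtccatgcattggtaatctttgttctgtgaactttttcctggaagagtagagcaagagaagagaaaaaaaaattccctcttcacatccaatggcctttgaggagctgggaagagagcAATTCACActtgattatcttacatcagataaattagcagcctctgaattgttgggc
The SMAD core in NODAL starts at base -237 from the start site, and 37.8% of 27305 promoter windows of the same length hold one. The FOXH1 core in GDF3 starts at -56, and 2.83% of windows hold one. An E-box match (CACTTG, of the form CANNTG) overlaps it from -50 and is left in lower case. No FOXH1 core was found in the NODAL window and no SMAD core in the GDF3 window. A match is a match of letters and does not show a bound site.

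LEFTY1 and LEFTY2, the inhibitors induced by NODAL, both lie on chromosome 1. LEFTY1 had 0 and 0.0178 FPKM (H1 and HUES9) in srNMPs at passage 25 and 0.0342 and 0.118 FPKM at passage 8, against 18.9 FPKM in ESC. LEFTY2 had 0.0125 and 0.0250 FPKM at passage 25 and 0.0960 and 0 FPKM at passage 8, against 12.7 FPKM in ESC. No srNMP library came near ESC. In srNMPs LEFTY1 fell by 4.30 ± 0.20 (SE, adjusted p = 1.41e-05) and LEFTY2 fell by 3.74 ± 0.10 (SE, adjusted p = 4.97e-07). The genes are near copies: of the 50-base windows of their annotated transcripts, 26.8% of those of LEFTY1 occur in LEFTY2 and 21.5% of those of LEFTY2 occur in LEFTY1. A further annotated gene, AL117348.2, overlaps LEFTY1 on the same strand and holds more, 45.3% of the windows of LEFTY1 and 20.3% of those of LEFTY2. How the counting split shared reads is not given in the sources used here, so the separate values are uncertain. No such window was shared with another protein-coding gene for the other 8 members.

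LEFTY1 was detected above the level of a few fragments in most neuron libraries. Ventral neurons had 0.575 FPKM in H1 and 0.0369 FPKM in HUES9, and dorsal neurons had 0.375 FPKM in H1 and 0.229 FPKM in HUES9. The 7-day progenitors had 0.0174 to 0.0690 FPKM, so the HUES9 ventral library lay among them and the other 3 above. The change of 0.32 ± 0.12 did not pass the test (SE, adjusted p = 0.0819; without RASS 0.293, adjusted p = 0.219), although it did without that HUES9 ventral library (0.47, adjusted p = 0.00723). LEFTY2 was at most 0.0251 FPKM in neurons. NODAL stayed at or under 0.0250 FPKM in the same libraries.

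Relative to ESC, srNMPs therefore had 4 of 10 members called lower and none called higher; of all genes tested, 7.93% were called lower, 8.73% higher and 16.7% in either direction. The median change was -0.46 over the members and 0.07 over all genes. Since 3 of the 4 passed the filter only through ESC, the count is a description. ESC is 1 library with no replicate, and its p-values borrow the spread of the other groups, where these genes were near 0. With 0.1 instead of 1 added before the log, the changes were -8.04 for NODAL, -8.65 for GDF3, -7.25 for LEFTY1 and -6.67 for LEFTY2, all called.

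Some genes that carry or answer the NODAL signal were also called lower in srNMPs: 1 of 7 receptors and co-receptors, 1 of 5 SMAD effectors and partners, and 4 of 8 intracellular inhibitors and feedback genes. TDGF1, the CRIPTO co-receptor, had the value 0 in each srNMP library, against 362 FPKM in ESC (adjusted p = 8.2e-08). FOXH1, the DNA-binding partner of SMAD2, had 0 to 0.0573 FPKM in srNMPs against 44.4 FPKM in ESC, a change of -5.47 ± 0.10 (SE, adjusted p = 8.2e-08). Neither exceeded 0.180 FPKM in any library of progenitors, neurons or muscle. None of the 8 inhibitors and feedback genes was called higher, beside 7.93% of all genes called lower and 8.73% higher in srNMPs. Among the 4 called lower SMAD7, which blocks the receptors, averaged 0.740 FPKM in srNMPs against 21.8 FPKM in ESC (-3.69 ± 0.43, SE, adjusted p = 0.00175). PMEPA1, which sequesters SMAD2 and SMAD3, averaged 0.128 FPKM against 8.95 FPKM (-3.09 ± 0.34, SE, adjusted p = 0.00131). SKIL, a corepressor of SMADs, averaged 2.52 FPKM against 18.5 FPKM (-2.52 ± 0.36, SE, adjusted p = 0.00431).

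The remaining parts of the pathway in srNMPs went both ways relative to ESC. Of 6 mesendoderm targets tested, 3 were called lower and 1 higher. The one called higher was TBXT, a transcription factor that marks neuromesodermal progenitors as well as early mesoderm, at 1.87 to 13.4 FPKM in srNMPs against 0.178 FPKM in ESC (2.62 ± 0.67, SE, adjusted p = 0.0394); the call was lost in 9 of 24 alternative settings. EOMES, MIXL1 and GSC, which are switched on early in mesoderm and endoderm formation, were the 3 called lower; they reached at most 0.174 FPKM in srNMPs, against 1.04 to 2.01 FPKM in ESC. Of the SMAD effectors, SMAD3 and SMAD4 were called higher. SMAD3 was at 25.3 to 30.7 FPKM in srNMPs against 6.79 FPKM in ESC (1.93 ± 0.26, SE, adjusted p = 0.0033). SMAD4 averaged 13.98 FPKM in srNMPs against 8.88 FPKM in ESC (0.63 ± 0.16, SE, adjusted p = 0.0356). The SMAD4 call was made in only 9 of 24 alternative settings. SMAD2 had 1.45 to 1.74 FPKM in srNMPs and 1.93 FPKM in ESC. WFIKKN1, a secreted protein that binds GDF11 and myostatin, was higher at 5.19 to 10.5 FPKM in srNMPs against 0.843 FPKM in ESC (2.05 ± 0.26, SE, adjusted p = 0.00239). FURIN, a protease that cleaves ligand precursors, averaged 3.52 FPKM in srNMPs against 20.7 FPKM in ESC (-2.29 ± 0.33, SE, adjusted p = 0.0047). Over the 36 tested genes of 7 pathway lists, 4 were called higher and 10 lower in srNMPs, beside 8.73% and 7.93% of all genes.

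GDF11 was the ligand detected throughout. Its mean was highest in 7-day progenitors, at 24.2 ± 5.4 FPKM (SD, n = 4), followed by srNMPs at 20.0 ± 5.0 FPKM (SD, n = 4), neurons at 16.5 ± 7.5 FPKM (SD, n = 4), muscle at 8.42 ± 1.4 FPKM (SD, n = 2) and ESC at 6.29 FPKM (n = 1). The SDs run over lines and over passages, conditions or days. No neighbours in this order that were tested differed beyond their spread: the adjusted p was 0.632 for progenitors relative to srNMPs, 0.146 for neurons relative to progenitors (without RASS 0.462) and 0.132 for muscle relative to neurons. Muscle and ESC were not set against each other.

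By library, srNMPs had 19.9 and 24.2 FPKM of GDF11 at passage 25 and 22.7 and 13.03 FPKM at passage 8 (H1 and HUES9). Each lay above ESC, but the change of 1.55 ± 0.51 in srNMPs relative to ESC did not pass the test (SE, adjusted p = 0.0813) and was called in 3 of 24 alternatives. The RASS libraries had 25.2 and 30.0 FPKM and the RABC libraries 24.6 and 17.0 FPKM, within the srNMP range or above it. Ventral neurons had 16.4 FPKM in HUES9 and 6.15 FPKM in H1, against 23.6 FPKM in HUES9 and 19.7 FPKM in H1 dorsal neurons. Both ventral values lay below both dorsal ones, with a change of -1.02 ± 0.44 that did not pass the test (SE, adjusted p = 0.312). The gap between the lines was widest in ventral neurons, where HUES9 was higher by 1.28 on the log2 scale.

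Muscle had 9.43 FPKM of GDF11 at day 50 and 7.41 FPKM at day 40, below all 4 srNMP libraries and below all neuron libraries but the H1 ventral one. GDF11 was called lower in muscle than in srNMPs (-1.19 ± 0.40, SE, adjusted p = 0.0421). That call is at the edge: it was lost in 14 of 25 alternatives, among them with libraries scaled to equal totals (-0.907, adjusted p = 0.154), after quantile normalization (-0.979, adjusted p = 0.0945), without the day 40 library (-1.04, adjusted p = 0.152) and without the day 50 library (-1.35, adjusted p = 0.0708). The other libraries whose removal ended it were H1 and HUES9 srNMPs at passage 25 (-1.22 and -1.14), H1 srNMPs at passage 8 (-1.02), and each of the dorsal neuron and RASS libraries (-1.18). GDF11 also overlaps SARNP on the other strand in the annotation used here. The library kit keeps the strand, but whether the counting used it is not given in the sources used here.

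Myostatin reached 1 FPKM in muscle alone. MSTN had 20.1 FPKM at day 50 and 7.44 FPKM at day 40. In srNMPs it was 0.0103 and 0.0410 FPKM at passage 25 (H1 and HUES9) and 0 FPKM in both passage 8 libraries, and neurons had 0.0407 to 0.160 FPKM. The neuron values, like the 0.106 FPKM of HUES9 RASS cells, lay above 0.0307 FPKM, the estimated value of 3 fragments. Both muscle libraries lay above every other library, of which the highest was HUES9 ventral neurons. The change in muscle was 3.71 ± 0.09 relative to srNMPs (SE, adjusted p = 1.18e-07) and 3.57 ± 0.09 relative to neurons (SE, adjusted p = 1.47e-07). These SEs come from the groups with both lines, where MSTN was at or near 0, so they do not measure the spread in muscle. The mean in muscle was 117 times that in neurons. Day 50 was 2.70 times day 40, from 1 library each, so there is no test.

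INHBA, the subunit of activin A, had 1.33 FPKM at day 50 and 5.05 FPKM at day 40 of muscle. It was 0 FPKM in 3 srNMP libraries and 0.0136 FPKM in HUES9 srNMPs at passage 8. Neurons had 0.418 and 0.178 FPKM in ventral and 0.0250 and 0.354 FPKM in dorsal cultures (H1 and HUES9), above the 7-day progenitors, which reached 0.00350 FPKM, the value of about 1 fragment. INHBA was called higher in muscle than in srNMPs (1.89 ± 0.13, SE, adjusted p = 4.35e-05) and than in neurons (1.59 ± 0.13, SE, adjusted p = 0.000102). Without the day 40 library these changes were 1.20 (adjusted p = 0.00181) and 0.903 (adjusted p = 0.00612), still called. The change in neurons relative to progenitors, 0.30 ± 0.10, did not pass the test (SE, adjusted p = 0.0559; without RASS 0.301, adjusted p = 0.148). It passed without the cell line term (adjusted p = 0.0404), with 0.1 added before the log (1.56, adjusted p = 0.0206) and without either H1 dorsal neurons (0.413, adjusted p = 0.0184) or HUES9 ventral neurons (0.389, adjusted p = 0.0287).

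INHBE, which encodes a subunit of activin E and is known mainly from liver, had 3.53 FPKM at day 50 and 5.65 FPKM at day 40 of muscle. The srNMPs had 0.156 to 0.655 FPKM, neurons 0 to 0.238 FPKM and ESC 0.726 FPKM. RASS cells had 0.0605 to 0.115 FPKM, and RABC cells 0.0459 FPKM in H1 and 2.44 FPKM in HUES9, the one library outside muscle above 1 FPKM. INHBE was called higher in muscle than in srNMPs (1.97 ± 0.44, SE, adjusted p = 0.00827) and than in neurons (2.28 ± 0.44, SE, adjusted p = 0.00497). The 4 liver markers (for example ALB and TTR) summed to 0.930 to 1.07 FPKM in muscle. The gene lies on chromosome 12 next to INHBC, whose level did not exceed 0.0450 FPKM in muscle.

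The start regions of MSTN and INHBA are shown because both ligands were at or near 0 in srNMPs and high in muscle. The MSTN window is at chr2:190062730-190062979 and the INHBA window at chr7:41703091-41703340, both minus strand, from the same RefSeq build. Capitals mark E-boxes (CANNTG, the letters bound by MYOD1 and its relatives), the SMAD core CAGAC and the TATA box TATAAA.
MSTN: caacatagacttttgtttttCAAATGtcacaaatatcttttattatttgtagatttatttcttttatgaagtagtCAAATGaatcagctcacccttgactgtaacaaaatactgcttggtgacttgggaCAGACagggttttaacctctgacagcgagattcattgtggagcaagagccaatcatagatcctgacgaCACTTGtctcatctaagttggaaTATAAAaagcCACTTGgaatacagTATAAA
INHBA: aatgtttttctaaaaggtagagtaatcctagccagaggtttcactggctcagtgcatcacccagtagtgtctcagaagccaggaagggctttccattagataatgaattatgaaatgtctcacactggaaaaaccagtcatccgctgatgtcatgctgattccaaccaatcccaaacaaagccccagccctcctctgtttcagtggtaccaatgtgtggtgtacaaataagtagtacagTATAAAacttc
The MSTN window holds 4 E-box matches, at -230, -175, -53 and -20, a SMAD core at -121 and the letters TATAAA at -30 and -6. The INHBA window holds no E-box and no SMAD core, and the letters TATAAA at -11. Of 27305 windows, 62.2% hold at least 1 E-box match and 11.1% at least 1 TATAAA. The share with 4 E-box matches was not counted. Here too a match of letters does not show a bound site.

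FST, the antagonist of activin and myostatin, was highest in muscle, as were MSTN and INHBA. Both muscle days had 10.6 FPKM. The srNMPs had 0.458 and 2.46 FPKM at passage 25 and 1.98 and 0.265 FPKM at passage 8 (H1 and HUES9), so that the lines took opposite orders at the 2 passages. RASS cells had 0.539 and 0.223 FPKM and RABC cells 0.128 and 2.84 FPKM, while ventral neurons had 0.571 and 0.867 FPKM and dorsal neurons 0.171 and 1.90 FPKM. Muscle lay above all of these and above ESC at 2.80 FPKM. Of the members FST had the widest standard errors, and outside muscle no comparison of it passed the test.

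FST was called higher in muscle than in srNMPs (2.22 ± 0.63, SE, adjusted p = 0.0226), with a mean of 8.20 times the srNMP mean, and higher than in neurons (2.45 ± 0.63, SE, adjusted p = 0.0166), at 12.1 times. The call relative to srNMPs was lost with 0.1 added before the log (2.90, adjusted p = 0.0967) and without the day 40 muscle library (adjusted p = 0.0649), the day 50 library (adjusted p = 0.0604) or HUES9 srNMPs at passage 8 (1.53, adjusted p = 0.0598). Relative to neurons it was lost with 0.1 added (3.31, adjusted p = 0.0695) and without the day 40 library (adjusted p = 0.0516) or HUES9 ventral neurons (2.35, adjusted p = 0.0574).

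FSTL1, a secreted glycoprotein related to follistatin in part of its sequence, was the most abundant member in every library of muscle, srNMPs, progenitors and ESC. It reached 238.3 FPKM at day 50 and 395.5 FPKM at day 40 of muscle. The srNMPs had 39.98 and 47.0 FPKM at passage 25 and 41.5 and 45.5 FPKM at passage 8 (H1 and HUES9). Progenitors followed at 34.4 to 40.7 FPKM and ESC had 50.3 FPKM. Ventral neurons had 10.02 and 9.48 FPKM and dorsal neurons 11.8 and 13.4 FPKM, below every library of the other states.

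FSTL1 was called lower in neurons than in 7-day progenitors (-1.64 ± 0.10, SE, adjusted p = 0.000192; without RASS -1.60, adjusted p = 0.00176). It was the only member called in that comparison, in which 16.5% of all genes were called lower, 21.3% higher and 37.8% in either direction. Without HUES9 ventral neurons 4 members were called, FSTL1 and GDF11 lower (GDF11 -0.986, adjusted p = 0.031) and LEFTY1 and INHBA higher. Without H1 dorsal neurons 2 were called, with INHBA added, and without H1 RABC cells 2, with INHBE added (-0.888, adjusted p = 0.00715). In muscle FSTL1 was called higher than in srNMPs (2.76 ± 0.13, SE, adjusted p = 4.44e-06), at 7.28 times the mean, and than in neurons (4.64 ± 0.13, SE, adjusted p = 2.55e-07), at 28.3 times. FSTL1 is also made by fibroblasts, whose 7 markers had the sums given above in muscle; their part in its level was not tested. The order of its states by mean was muscle, ESC, srNMPs, progenitors and neurons; srNMPs did not differ from ESC beyond the spread (-0.18 ± 0.16, SE, adjusted p = 0.522), nor progenitors from srNMPs (-0.23 ± 0.10, SE, adjusted p = 0.212).

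In muscle 5 members were thus called higher than in srNMPs and 1 lower, beside 18.2% of all genes called higher, 31.6% lower and 49.8% in either direction. Relative to neurons the same 5, MSTN, INHBA, INHBE, FST and FSTL1, were called higher and none lower, beside 14.6% of all genes higher, 31.9% lower and 46.5% in either direction. The median change relative to srNMPs was 1.01 over the members and -0.22 over all genes, and relative to neurons 0.85 and -0.34. These comparisons share the muscle libraries. MSTN and INHBA passed the filter only through muscle, so these counts and medians are a description. With libraries scaled to equal totals the median of all genes relative to srNMPs moved to -0.01, and the 5 members called higher were still called. With 0.1 added before the log, the changes relative to srNMPs were 6.74 for MSTN, 4.62 for INHBA and 3.40 for INHBE, all called. Both muscle libraries come from HUES9 and are the only ones of their day, so the fit gives them the spread of the groups with both lines. MSTN and INHBA were under 1 FPKM in those groups. For every gene the fit gives each muscle day its own mean, so the SEs leave out the difference between the days. Day 50 minus day 40 in log2(FPKM + 1) was 1.32 for MSTN, -1.38 for INHBA, -0.554 for INHBE, -0.005 for FST and -0.728 for FSTL1.

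**Figure D2:**
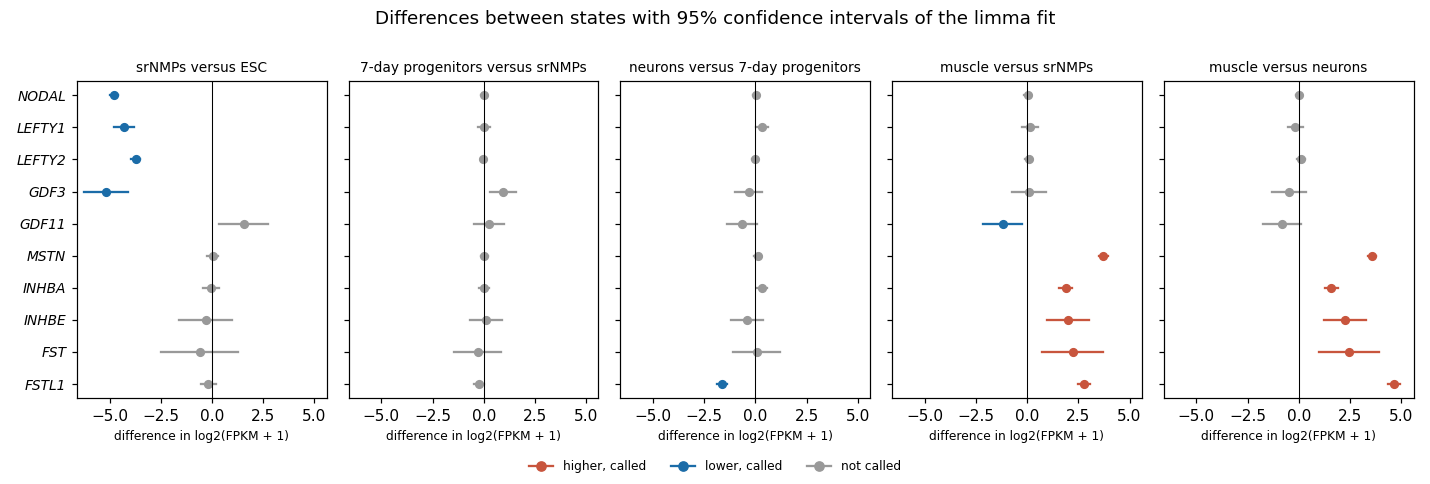
Change of each gene (y axis) in 5 comparisons, as a difference in log2(FPKM + 1) (x axis) with its 95% confidence interval from the limma fit; red was called higher, blue called lower and grey not called. The 4 NODAL, LEFTY and GDF3 points lie left of 0 in srNMPs versus ESC, 5 points lie right of 0 in both muscle comparisons, and FST has wide intervals throughout.

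Within a state limma called 0 members in any of the comparisons of passages, 7-day conditions or neuron kinds, each with 2 libraries per group. Between srNMPs at passage 25 and passage 8, limma called 0 members, with 0 at an unadjusted p under 0.05, and 0% of all genes. The largest change in size was that of GDF11 at 0.33 ± 0.44 (SE, adjusted p = 1, with a 95% confidence interval of -0.70 to 1.37). For FSTL1 the interval was -0.34 to 0.33 and for FST, whose lines differed in direction, -1.41 to 1.83. Between RASS and RABC limma also called 0 members, with 0 at an unadjusted p under 0.05, beside 0.517% of all genes; INHBE had the largest change, -0.80 ± 0.48 (SE, adjusted p = 0.787).

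In ventral relative to dorsal neurons limma called 0 members, with 1 at an unadjusted p under 0.05, beside 2.04% of all genes (1.47% higher, 0.573% lower). That 1 was FSTL1, with 9.75 ± 0.38 FPKM in ventral and 12.6 ± 1.1 FPKM in dorsal neurons (SD, n = 2 each; -0.34 ± 0.14, SE, adjusted p = 0.296). In 7-day progenitors relative to srNMPs limma called 0 members, with 1, GDF3, at an unadjusted p under 0.05, beside 3.43% of all genes (1.73% higher, 1.69% lower). That background is unstable: of all genes 484 were called, against 45 without H1 RABC cells and 2277 without H1 srNMPs at passage 8.

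Of the ligand genes of this branch outside the 10 that were examined, INHBB, INHBC and INHA, the one at more than 5 FPKM was INHBB, the subunit of activin B. TGF-beta and other ligands of the superfamily were not examined. Neurons had 7.51 and 12.3 FPKM in ventral and 4.98 and 9.30 FPKM in dorsal cultures (H1 and HUES9), against 0.0437 to 1.07 FPKM in 7-day progenitors. It was called higher in neurons (2.71 ± 0.27, SE, adjusted p = 0.000904; without RASS 2.64, adjusted p = 0.00575). Muscle had 1.42 FPKM at day 50 and 0.737 FPKM at day 40, lower than neurons (-2.25 ± 0.35, SE, adjusted p = 0.00209). INHBB was thus at its highest in neurons and INHBA and INHBE in muscle. At day 50 of muscle, INHBA at 1.33 FPKM was not above INHBB at 1.42 FPKM, while INHBE had 3.53 FPKM. GDF1 was not analysed here.

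Some receptors also took different levels in muscle and neurons. Of 7 tested, 1 was called higher and 3 lower in muscle than in neurons, and 2 higher and 2 lower than in srNMPs. Over all genes, 46.5% were called in either direction relative to neurons and 49.8% relative to srNMPs, so these counts are a description. ACVR2B, a receptor for myostatin, GDF11 and activin, had 2.38 and 1.42 FPKM in muscle at days 50 and 40, against 12.6 to 15.8 FPKM in neurons and 6.16 to 10.3 FPKM in srNMPs. It was called lower relative to neurons (-2.41 ± 0.24, SE, adjusted p = 0.000237) and to srNMPs (-1.67 ± 0.24, SE, adjusted p = 0.0013). ACVR2A, the other type II receptor, had 16.1 and 9.88 FPKM in muscle at days 50 and 40, against 13.2 to 27.8 FPKM in neurons, and was not called between them (-0.49 ± 0.32, SE, adjusted p = 0.254); the day 40 value lay below every neuron library. It was called higher in muscle than in srNMPs, which had 1.93 to 4.19 FPKM (1.78 ± 0.32, SE, adjusted p = 0.00367). ACVR1B, the activin type I receptor, had 4.66 and 4.90 FPKM in muscle against 19.7 to 34.3 FPKM in neurons (-2.15 ± 0.18, SE, adjusted p = 0.000104). TGFBR3, a co-receptor that binds inhibin and TGF-beta, was higher in muscle than in neurons, at 13.4 and 15.97 FPKM against 0.124 to 0.922 FPKM (3.47 ± 0.24, SE, adjusted p = 4.14e-05).

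Some proteases that free the ligands from their precursors were higher in muscle. Of 5 tested, 3 were called higher than in neurons and 2 higher than in srNMPs, with none lower in either. Over all genes, 14.6% and 18.2% were called higher in those comparisons. BMP1, which cuts the myostatin and GDF11 propeptides, had 36.8 and 46.4 FPKM at those days in muscle against 5.50 to 10.04 FPKM in srNMPs (2.18 ± 0.36, SE, adjusted p = 0.00238). FURIN had 20.3 and 18.1 FPKM in muscle against 2.78 to 4.90 FPKM in srNMPs (2.19 ± 0.26, SE, adjusted p = 0.000593). WFIKKN1 went the other way, at 0.151 and 0.0292 FPKM in muscle against 5.19 to 10.5 FPKM in srNMPs (-2.81 ± 0.20, SE, adjusted p = 4.85e-05). It was also lower in neurons than in 7-day progenitors, at 0.290 to 0.547 FPKM against 5.89 to 9.14 FPKM (-2.53 ± 0.16, SE, adjusted p = 0.000196; without RASS -2.34, adjusted p = 0.00196).

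Feedback genes low in srNMPs were higher in some later states, among them PMEPA1 in neurons and muscle, SKIL in neurons and SMAD7 in muscle. PMEPA1 had 8.59 to 13.9 FPKM in neurons against 0.631 to 2.03 FPKM in 7-day progenitors (2.28 ± 0.21, SE, adjusted p = 0.000635; without RASS 2.0, adjusted p = 0.00198). In muscle it had 12.03 and 11.4 FPKM at days 50 and 40, against 0.0453 to 0.231 FPKM in srNMPs (3.44 ± 0.27, SE, adjusted p = 7.44e-05). SKIL averaged 8.75 FPKM in neurons against 3.78 FPKM in 7-day progenitors (1.08 ± 0.22, SE, adjusted p = 0.0088). Without RASS the SKIL change was 1.27 (adjusted p = 0.0113), and it was called in 24 of 25 alternatives. SMAD7 had 4.39 and 6.41 FPKM in muscle against 0.436 to 1.20 FPKM in srNMPs (1.84 ± 0.34, SE, adjusted p = 0.00397). Of the 8 genes in this list, 3 were called higher and 2 lower in neurons than in progenitors, beside 21.3% and 16.5% of all genes. In muscle 5 were higher and 1 lower than in srNMPs, beside 18.2% and 31.6% of all genes. The gene called lower in muscle was TGIF2, a corepressor, at 9.49 and 7.61 FPKM in muscle against 22.4 to 32.5 FPKM in srNMPs (-1.59 ± 0.26, SE, adjusted p = 0.00234).

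Most targets linked to NODAL in the early embryo stayed low in later states. Of 6 tested, 3 were called higher and 1 lower in muscle than in srNMPs, beside 18.2% and 31.6% of all genes. MIXL1 had 0.617 and 0.449 FPKM in muscle at days 50 and 40, against 0.0559 to 0.174 FPKM in srNMPs. GSC had 0.184 and 0.404 FPKM at those days, against 0 FPKM in srNMPs. LHX1, which is also a factor of dorsal spinal interneurons, had 3.72 and 2.997 FPKM in ventral neurons (H1 and HUES9), against 66.4 and 70.7 FPKM in dorsal neurons (-4.0 ± 0.51, SE, adjusted p = 0.0133). That call was lost without HUES9 dorsal neurons (-3.96, adjusted p = 0.0872) and without H1 ventral neurons (-4.15, adjusted p = 0.05), and with 0.1 added before the log (-4.32, adjusted p = 0.089). TBXT did not exceed 0.0548 FPKM in 7-day progenitors, against 1.87 to 13.4 FPKM in srNMPs (-2.50 ± 0.41, SE, adjusted p = 0.0316; without RASS -2.48, adjusted p = 0.134). The one corepressor called there, SKI, averaged 16.8 FPKM in progenitors against 8.18 FPKM in srNMPs (0.95 ± 0.17, SE, adjusted p = 0.0359; without RASS 0.775, adjusted p = 0.23). The calls of TBXT and SKI were each made in 12 of 25 alternatives; each was lost with no filter and without either library of the RASS, dorsal or ventral pairs, among others. EOMES, MIXL1, GSC and FOXA2 reached at most 0.770 FPKM in any library outside ESC.

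Over the 36 tested genes of the pathway lists, 13 were called higher and 7 lower in muscle than in srNMPs. That stands beside 18.2% of all genes higher and 31.6% lower. Relative to neurons 8 were higher and 8 lower in muscle, beside 14.6% and 31.9% of all genes. In neurons 9 were higher and 4 lower than in progenitors, beside 21.3% of all genes higher and 16.5% lower. In 7-day progenitors 2 were higher and 2 lower than in srNMPs, beside 1.73% and 1.69% of all genes. In ventral relative to dorsal neurons 1 was lower, beside 0.573% of all genes. Between the passages and between the 7-day conditions limma called 0.

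**Figure D3:**
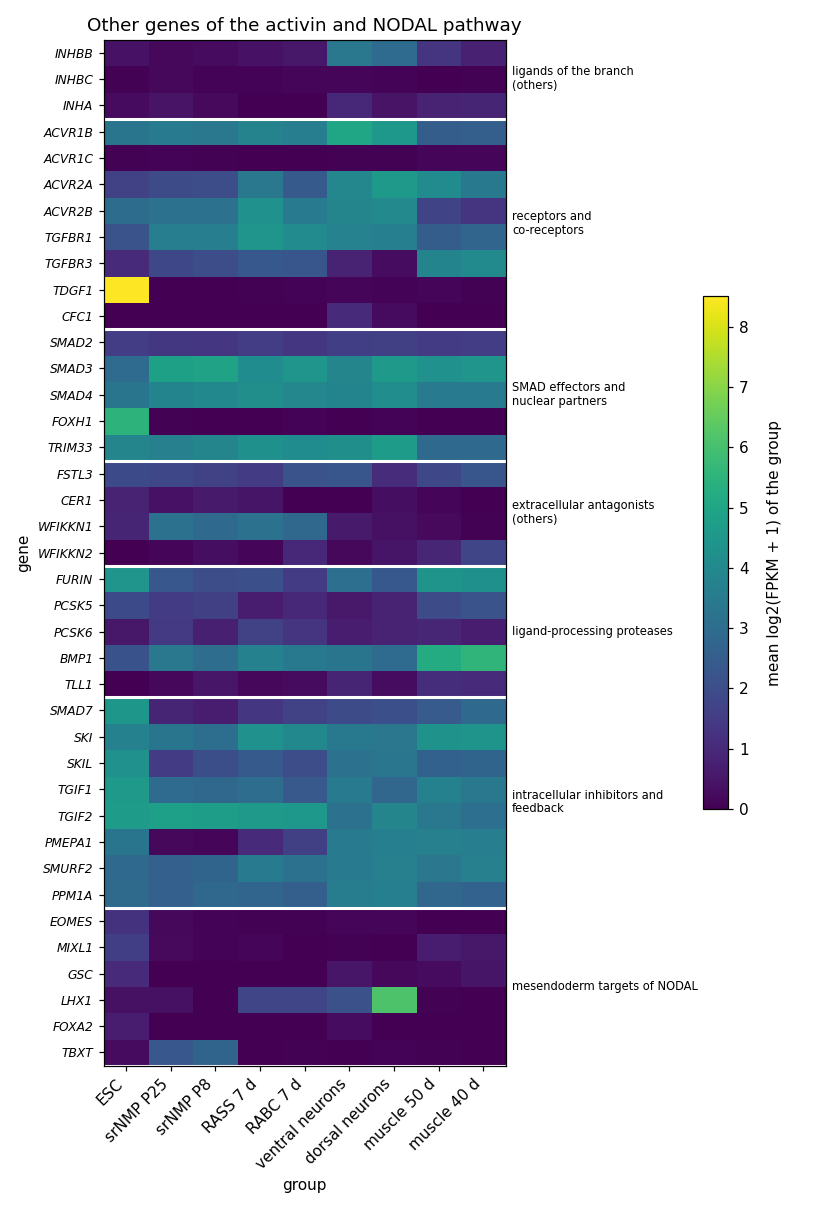
Mean level of further genes of the pathway (rows, by list) in each of the 9 groups (columns), as log2(FPKM + 1) by colour. TDGF1 and FOXH1 stand out in ESC, INHBB in the neuron columns, BMP1 in the muscle columns, and LHX1 in dorsal neurons. FURIN is high in both the ESC and the muscle columns.

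Only GDF11 and FSTL1 were abundant in enough libraries, at 5 FPKM or more in at least 3, to look for genes with a like pattern. Over 15 libraries and 9596 genes compared, the genes closest to GDF11 in log2(FPKM + 1) were MIER3 (Pearson r = 0.932), TUBGCP4 (r = 0.927) and IPO9 (r = 0.912). Those closest to FSTL1 were ADD3 (r = 0.968), KANK2 (r = 0.959) and TPM2 (r = 0.948). TPM2, a muscle tropomyosin, averaged 1577 FPKM in muscle, 28.4 FPKM in neurons and 141 FPKM in srNMPs. KANK2 averaged 39.5 FPKM in muscle, 1.92 FPKM in neurons and 5.30 FPKM in srNMPs. These are descriptions over libraries that share lines and scaling, with no p.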

How the data were processed

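Messenger RNA of 15 cultures was sequenced; per the labels' protocols, libraries were made with a TruSeq Stranded mRNA kit and read on a NovaSeq instrument. The authors deposited FPKM for 17999 gene symbols. The tools named in the submitters' processing notes are HISAT2, Cufflinks, HTSeq and Trimmomatic, with build hg18; versions, roles and gene lengths are not given in the sources used here. FPKM hold no counts; low values of 3941 genes gave relative depth, and 83.6% of 19746 such values were whole multiples of 1 fragment within 2%. The table has 1 further column of values that matched no sample and was not used.

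The filter kept the 14129 genes that reached 1 FPKM in any library. limma 3.58.1 in R 4.3.3 fitted log2(FPKM + 1) with a mean for each of 9 groups and a cell line term, 5 residual and 2.16 prior degrees of freedom, and a variance trend, giving 8 two-sided contrasts, adjusted over all genes by Benjamini and Hochberg. The replicates of a group are its 2 cell lines, so the line named in the labels pairs them. Leaving a state's only library of a day out pools the spread of the other groups. The fit was tested on simulated data. Named genes are the 10 members and, of 7 lists of other pathway genes, those called with a group mean of at least 5 FPKM, at most 3 per list and comparison. A few uncalled genes were added after their values were seen. EOMES, MIXL1 and GSC, called but under 5 FPKM in every library, were named outside this rule. Not every gene within this rule is given for every comparison. The members and lists were chosen with earlier results of these data known. Transcript windows came from GENCODE, promoters from RefSeq, in which 7 members matched. A gene of these lists that counts in the tests is not reported here by name. Alternatives are in the closing section. Python 3.11.15, pandas 2.3.3 and matplotlib 3.10.9 were also used.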

Additional observations from a re-analysis of the deposited data

Results flagged for a closer look

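FST moved in opposite directions with passage in the 2 lines. Its log2(FPKM + 1) difference between passage 25 and passage 8 srNMPs was -1.03 in H1 and 1.45 in HUES9. The difference between the lines was not tested, since each line has 1 library per passage. FST had 0.458 FPKM at passage 25 and 1.98 FPKM at passage 8 in H1, and 2.46 FPKM at passage 25 and 0.265 FPKM at passage 8 in HUES9.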

How the results depend on the processing

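Over the member results that were followed through the alternatives, 558 alternative values kept their direction and side of the threshold, 13 passed it newly, 21 lost it and 1 reversed. Beside those given in the report, GDF11 passed newly in muscle relative to neurons without H1 ventral neurons (-1.06, adjusted p = 0.0302), and LEFTY1 without HUES9 ventral neurons (-0.377, adjusted p = 0.0225). The members called in neurons relative to 7-day progenitors were 1, against 2 with a pseudocount of 0.1, 2 with no replicate block (the pairing by cell line left out) and 1 to 4 when leaving out 1 library at a time. The block changed no other count of members called. Quantile normalization called 1 member, GDF3 (0.988, adjusted p = 0.0469), in 7-day progenitors relative to srNMPs. The reversal was that of INHBE in neurons relative to 7-day progenitors, at -0.888 to 0.056 over the fits that leave out 1 library; the cause was not tested. Counts over all genes moved by over 1.5 times in 7-day progenitors relative to srNMPs, where 484 genes were called, against 183 with no filter, 772 with no block, 875 with the line labels of RASS swapped and 25 without RASS. Leaving out 1 library gave 45 (H1 RABC), 63 (H1 passage 25), 91 and 98 (H1 and HUES9 dorsal), 99 (HUES9 passage 8), 119 and 284 (HUES9 and H1 RASS), 200 and 203 (H1 and HUES9 ventral) or 2277 (H1 passage 8). For RASS relative to RABC 73 were called, against 46 with no filter, 113 with the labels swapped, 8 and 32 without H1 and HUES9 RABC, 30 and 33 without H1 and HUES9 dorsal and 41 without either ventral library. For ventral relative to dorsal neurons 288 were called, against 137 without HUES9 dorsal, 174 and 170 without H1 and HUES9 RABC, and 176 and 175 without H1 and HUES9 passage 25. For srNMPs relative to ESC 2354 were called, against 1504 without HUES9 passage 25 and 1390 with HUES9 libraries only. For neurons relative to progenitors 5343 were called, against 3290 without H1 dorsal, 3532 without HUES9 RABC and 647 with HUES9 libraries only. Of 47 results on other pathway genes, 32 were called in every setting and none reversed. No ESC library remains when the only one is left out, so that fit was not made. Fits over 5 state means, with all or with HUES9 libraries only, were chosen after seeing the data. FPKM hold no counts, so no counting interval is given, and values of a few fragments cannot be told from 0.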
